A study of Sus scrofa with 10 samples.

Results

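Genes known from cells of the cerebellum were followed through single-cell libraries of the pig medial entorhinal cortex (MEC), a part of the cerebral cortex. The members were taken by name as 9 of the 22452 genes in the count tables: CA8, ITPR1, SKOR2, PCP2, CBLN1, CBLN3, ATOH1, BARHL1 and CNTN2. They were described in all 10 libraries, which held 28229 cells or nuclei, and the question was which cells held their transcripts. All 9 were counted in at least 1 library.

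The study sequenced droplet libraries of dissociated MEC tissue to follow the cell populations of this cortex through development. Whole cells were collected at embryonic day 50 (E50, 1 library pooled from 3 brains), day 60 (E60, 3 libraries from 1, 1 and 2 brains) and day 70 (E70, 3 libraries from 2, 1 and 1 brains), and isolated nuclei came from 1 brain at E70. The other libraries, 1 of whole cells and 1 of nuclei, carry the stage label Adult and came from 1 brain each; the study's methods name an adult sow as their source, and its results a postnatal stage. The labels name no treatment or genetic change, and do not name litters; the study's methods place the 3 whole-cell libraries of E60, and of E70, in separate batches made from 4 brains. The libraries held 493 to 8171 cells and 2336865 to 55755512 unique molecular identifiers (UMIs, counted molecules), with a median of 690 UMIs per nucleus in the adult nuclei and 2616 to 9403 per cell elsewhere. In the adult nuclei 76.9% of barcodes held under 1000 UMIs.

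E60 replicates 1 and 2 stood apart from the other fetal libraries before any member was considered. Clusters named excitatory-like from fixed markers held 0.0122% and 0.0287% of their cells, against 23.7% to 43.6% in the other fetal libraries. The 8 excitatory markers summed to 35.2 and 15.5 CPM (the usual scaling of a gene's UMIs by all UMIs of the same cells) against 268 to 683, and the 5 erythroid markers summed to 50978 and 60765 CPM against 13760 to 19904 in the other fetal libraries of whole cells. The members' shares in the main clusters and the comparison of E60 with E70 are therefore also given without 1 or both of them. Of all cells, 901 (3.19%) had a barcode that another library also held, with at most 57 between any pair of libraries.

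Purkinje cells are the inhibitory output neurons of the cerebellar cortex, and granule cells are its small excitatory neurons, born in the rhombic lip at the edge of the hindbrain roof. CA8, ITPR1, SKOR2 and PCP2 are known from Purkinje cells, ATOH1 and BARHL1 from the rhombic lip and granule cell precursors, CBLN1 and CBLN3 from granule cells, and CNTN2 from granule cells on their way out of division as well as from other axon-growing neurons. Several of these genes also serve elsewhere in the brain, so a transcript alone does not name a cell.

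To show where the members begin in the genome, their upstream sequence was read. For CA8, ITPR1, SKOR2 and BARHL1, 4 of the members that the results turn on, the 250 bases before the start in RefSeq's annotation of Sscrofa11.1 are shown 5′ to 3′ on the gene's own strand. They lie at chr4:73047617-73047866 (plus strand), chr13:61067881-61068130 (plus), chr1:96842361-96842610 (minus) and chr1:272372875-272373124 (plus). Capitals mark matches to TATAA or CAGNTG, searched on both strands.
CA8: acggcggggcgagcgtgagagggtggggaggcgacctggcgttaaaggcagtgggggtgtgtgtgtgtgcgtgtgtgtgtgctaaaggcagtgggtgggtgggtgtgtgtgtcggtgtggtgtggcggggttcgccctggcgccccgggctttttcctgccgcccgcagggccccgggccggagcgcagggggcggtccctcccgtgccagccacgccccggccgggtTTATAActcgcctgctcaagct
ITPR1: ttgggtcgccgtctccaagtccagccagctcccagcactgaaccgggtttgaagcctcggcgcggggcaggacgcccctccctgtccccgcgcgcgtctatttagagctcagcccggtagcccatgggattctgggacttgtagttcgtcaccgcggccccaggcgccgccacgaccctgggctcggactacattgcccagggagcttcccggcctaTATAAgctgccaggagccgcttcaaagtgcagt
SKOR2: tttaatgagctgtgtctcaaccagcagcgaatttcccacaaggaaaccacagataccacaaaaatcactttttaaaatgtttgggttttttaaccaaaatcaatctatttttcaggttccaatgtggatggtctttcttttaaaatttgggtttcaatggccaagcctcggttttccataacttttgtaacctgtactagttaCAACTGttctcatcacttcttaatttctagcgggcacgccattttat
BARHL1: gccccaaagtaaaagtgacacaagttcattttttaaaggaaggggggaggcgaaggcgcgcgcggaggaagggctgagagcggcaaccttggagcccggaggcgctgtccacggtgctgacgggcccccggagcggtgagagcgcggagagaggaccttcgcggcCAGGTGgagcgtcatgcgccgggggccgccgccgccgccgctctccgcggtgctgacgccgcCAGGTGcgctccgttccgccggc

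TATAA stood in the windows of CA8, where a match on each strand overlapped, and ITPR1, and in 17.2% of 19556 promoter windows of this length. CAGNTG, a core read by basic helix-loop-helix factors such as ATOH1, stood in the windows of SKOR2, PCP2, CBLN3 and BARHL1 and in 43.6% of all windows. AGGTCA, the core site of the Purkinje cell regulator RORA (12.2% of all windows), was found in none of the windows shown, which says only that these letters are not there. The SKOR2 window was 36.4% G and C, against 65.2% to 70.4% in the others shown. RefSeq places LOC106505661 on the opposite strand within ITPR1, KHNYN opposite CBLN3, and TRAPPC5, MCEMP1, RETN and STXBP2 opposite PCP2. The study's methods name Cell Ranger's default settings for counting, which take reads on a gene's own strand.

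Across the libraries, CA8 was uneven. CA8 encodes a carbonic anhydrase-related protein that binds the inositol trisphosphate (IP3) receptor. Its level was 46.5 CPM at E50, 59.7, 15.5 and 13.5 CPM in E60 replicates 1 to 3, 15.4, 10.2 and 18.7 CPM in E70 replicates 1 to 3, 24.9 CPM in E70 nuclei, 10.6 CPM in adult cells and 92.4 CPM in adult nuclei. The adult nuclei, E60 replicate 1 and E50 were the 3 highest, in that order, each apart from the next beyond its exact 95% Poisson interval, which covers counting error only. From E60 replicate 2 downward the intervals of neighbours overlapped, and E60 replicate 1 lay far outside the range of the other E60 libraries. E50 and E60 replicate 1 together held 73.8% of the 7033 CA8 UMIs but 48.0% of all UMIs.

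ITPR1, the IP3 receptor through which Purkinje cells release stored calcium, was more even. It ran from 32.2 CPM in E60 replicate 2 to 101 CPM in E70 nuclei, with 67.0 CPM at E50, 59.7 and 65.1 CPM in E60 replicates 1 and 3, 63.0, 69.1 and 57.4 CPM in E70 replicates 1 to 3, 71.6 CPM in adult cells and 70.2 CPM in adult nuclei. E70 nuclei at the top and E60 replicate 2 at the bottom stood apart from their neighbours beyond the counting intervals, and all neighbours between them overlapped. Of its 12492 UMIs, 50.7% lay in E50 and E60 replicate 1, close to their share of all UMIs. SKOR2, a nuclear co-repressor needed for Purkinje cell differentiation, was counted 515 times in all. It stood at 2.49 CPM at E50, 1.38, 0.511 and 3.15 CPM at E60, 6.49, 4.46 and 2.69 CPM at E70, 4.21 CPM in E70 nuclei, 3.58 CPM in adult cells and 11.6 CPM in adult nuclei, the last from 27 UMIs. Counting intervals of neighbours overlapped down to E50, below which E60 replicates 1 and 2 each lay lower. PCP2, a Purkinje cell modulator of G protein signalling, was close to undetected, with 21 UMIs in 21 cells spread over all 10 libraries (1 to 5 each).

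CBLN1, a secreted bridge between granule cell axons and Purkinje cell spines, was held almost wholly by E50 and E60 replicate 1. It was counted 612 times at E50 (10.98 CPM) and 406 times in E60 replicate 1 (9.31 CPM), then 22 and 17 times in E60 replicates 2 and 3 (0.865 and 0.595 CPM). E70 replicates 1 to 3 held 1, 4 and 13 UMIs (0.158, 0.575 and 0.467 CPM), adult cells held 3 (0.413 CPM), and neither library of nuclei held any, where 3 UMIs would have been 0.971 CPM at E70 and 1.28 CPM in the adult. E50 and E60 replicate 1 overlapped in their counting intervals, lay above every other library and held 94.4% of its 1078 UMIs. CBLN3, which pairs with CBLN1, was counted 47 times, 23 of them at E50, and was highest in adult cells at 0.826 CPM from 6 UMIs.

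The rhombic lip genes were all but confined to the same libraries. BARHL1, a homeobox gene of rhombic lip derivatives, had 196 UMIs at E50 (3.52 CPM), 21 in E60 replicate 1 (0.482 CPM), 3 in E60 replicate 2 and 2 in E70 replicate 3, and none in the other 6, so E50 and E60 replicate 1 held 97.7% of it. ATOH1, the factor that specifies granule cell precursors, was counted 5 times, 2 at E50 and 3 in E60 replicate 1. CNTN2, an axonal contactin also called TAG-1, was not confined to those libraries. It stood at 39.8 CPM at E50, 10.2, 5.15 and 42.2 CPM at E60, and 44.0, 56.7 and 38.0 CPM at E70. Its level was 27.2 CPM in E70 nuclei, 82.4 CPM in adult cells and 237.5 CPM in adult nuclei. Its lowest libraries were E60 replicates 1 and 2, and only 38.2% of its UMIs lay in E50 and E60 replicate 1.

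**Figure D1:**
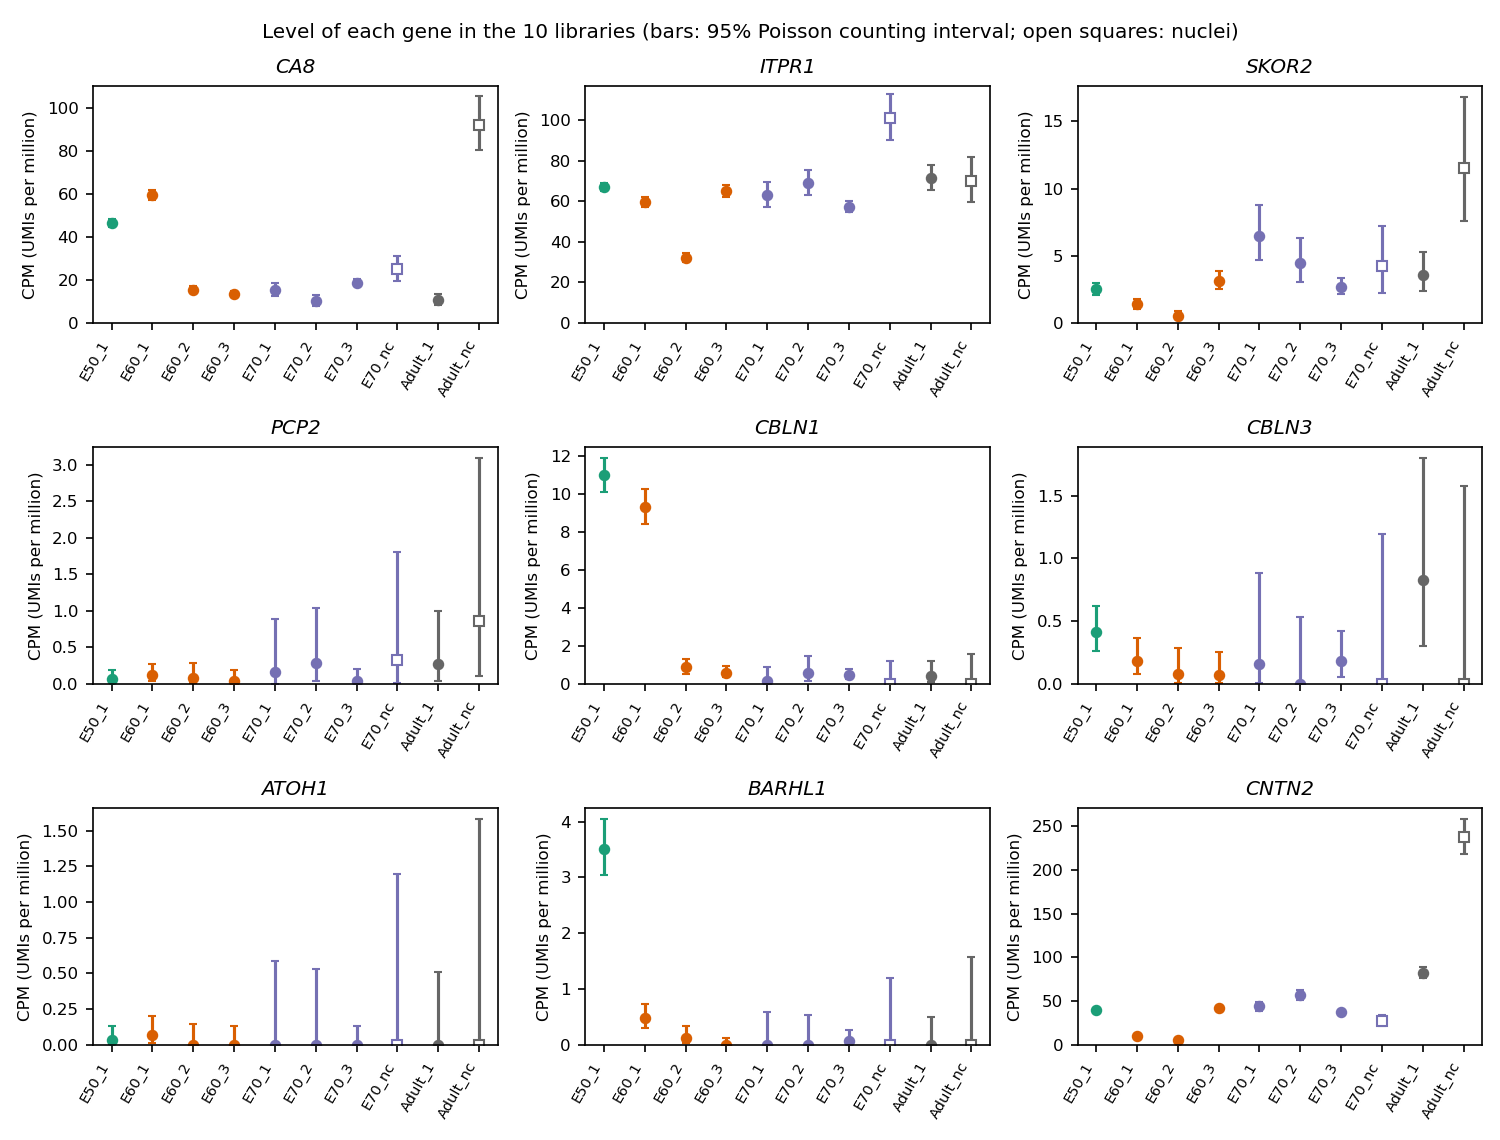
Level of each of the 9 members in CPM (linear axis, from 0) in each of the 10 libraries (E60_1 is E60 replicate 1, nc is nuclei), with bars for exact 95% Poisson intervals that cover counting error only and open squares for nuclei. CBLN1 and BARHL1 stand high at E50 and, for CBLN1, in E60 replicate 1, CA8 in those libraries and in adult nuclei, and CNTN2 in the adult libraries.

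Levels summed over a library do not separate fewer cells of a type from less RNA per cell, so the cells were clustered. The members and the other listed genes, 153 in all, were kept out of the genes that formed the clusters, so that no member placed a cell. Of 47 clusters, cluster 37 was named Purkinje-like from 12 other Purkinje genes and cluster 35 granule-like from 10 other granule cell genes. These names rest on rebuilt clusters and may differ from the study's. No test sets a cluster against the rest, and the values that follow are descriptions.

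The Purkinje members CA8, ITPR1 and SKOR2 met in cluster 37. Scrublet's automatic doublet threshold marked 0.441% of its cells, and no Purkinje-like cell shared its barcode with another one. The cluster held 227 cells (0.804% of all), 132 from E50 (2.40% of that library, exact 95% binomial interval 2.01% to 2.84%) and 95 from E60 replicate 1 (1.16%, 0.942% to 1.42%). Clustered without batch correction, the 132 cells of E50 stayed Purkinje-like, but 92 of the 95 of E60 replicate 1 fell into a cluster of 189 cells named erythroid-like, so the name in that library depends on the correction. The other 8 libraries gave 0 cells, and the upper bound of the same interval was 0.106% in E60 replicate 2 and 0.745% in the smallest library, E70 replicate 1. Clusters 14 and 43 also scored best on the Purkinje list, with 9 and 12 of its 12 genes found in at least 10% of cells, but their scores of 1.04 and 0.92 lay under the minimum of 1.2 for a name. Cluster 14 made up 5.25% and 5.43% of E60 replicates 1 and 2 and at most 0.581% of any other library, cluster 43 at most 1.08% of any, and CA8 stood there at 55.5 and 18.6 CPM. In cluster 37 CA8 was at 1049 CPM in 95.2% of cells, ITPR1 at 745 CPM in 91.2% and SKOR2 at 66.6 CPM in 32.2%, each the highest of the 47 clusters. When each cell was thinned to 1000 UMIs, with shallower cells left out, the shares were 59.0%, 50.2% and 6.17%.

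Microglia are not known for these genes and served as the reference for free RNA in the droplets. In microglia-like clusters 17 and 36, 24.1% and 31.5% of cells were among those scored as doublets at the expected rate. The reference may therefore include doublets. Clusters 17 and 36 held all CBLN1 of the microglia-like cells, in 0.547% and 7.23% of their cells. CA8 was in 17.0% and 11.5% of their cells, against 0.286% to 3.23% in the other microglia-like clusters. Microglia-like cells (2592 cells, median 5102 UMIs, against 6673 in cluster 37) held CA8 in 5.83% of cells, ITPR1 in 8.76% and SKOR2 in 1.04%, and after thinning in 1.22%, 1.97% and 0.175%. Cluster 37 was above these shares for all 3. In the small E70 replicates 1 and 2, with 20 and 19 microglia-like cells, these held SKOR2 at 10.6 and 22.9 CPM, above the 6.49 and 4.46 CPM of the whole libraries, and in E70 replicate 2 ITPR1 at 87.0 CPM against 69.1, so they are no clean background there. Cluster 37 made up 0.804% of cells and held 24.9% of all CA8 UMIs, 21.6% of SKOR2 UMIs and 9.94% of ITPR1 UMIs. With the E50 library left out these shares were 6.37%, 6.65% and 4.79%, and with E60 replicates 1 and 2 left out 36.3%, 19.5% and 9.07%. PCP2 was met by 2 UMIs there. CBLN1 was found in 4.41% of the cluster's cells, and in 3.03% of those of E50, where 3.20% of microglia-like cells held it. In E60 replicate 1 it was found in 6 of the 95 cells (6.32%, exact binomial interval 2.35% to 13.2%), against 0.693% of microglia-like cells. BARHL1, ATOH1 and CBLN3 were at 0.

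Most cells of the cluster held several of the 3 transcripts. Of the 227 cells, 216 held CA8, 207 held ITPR1 and 199 held both, and of the 73 cells with SKOR2, 71 also held CA8 and 70 held ITPR1. Since nearly every cell held CA8 and ITPR1, these overlaps follow from the shares themselves. Over the whole series 1184 cells held both CA8 and ITPR1, which is 32.7% of the cells with CA8 and 19.5% of those with ITPR1. A cell with at least 3 UMIs of each was rarer, and 205 were found, 131 of them (63.9%) in cluster 37, 109 from E50 and 87 from E60 replicate 1. Of the remainder, 26 lay in cluster 11, led by the choroid plexus gene TTR, 12 lay in cluster 14 and 5 were microglia-like. Of 122 cells with any UMI of CA8, ITPR1 and SKOR2 together, 68 were in cluster 37.

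The 2 libraries differed within the cluster, each being a single library, so that no test applies. CA8 was at 1110 CPM at E50 (exact Poisson interval 1054 to 1168) and 818 CPM in E60 replicate 1 (725 to 919). ITPR1 went the other way, from 623 CPM (582 to 667) to 1211 CPM (1098 to 1333). SKOR2 was alike, at 65.1 and 72.2 CPM. All 132 E50 cells held CA8, with a median of 10 UMIs, against 88.4% of E60 replicate 1 cells with a median of 3, at median depths of 10323 and 3258 UMIs. These intervals cover counting error only.

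The other Purkinje genes, whose levels named the cluster and are given only to describe it, were led there by CALB1, a calcium buffer (2320 CPM), PCP4, a calmodulin regulator (1437 CPM), DAB1, the adaptor of the reelin pathway (1204 CPM), and RORA, a nuclear receptor (544 CPM). Of the 12, 11 were found in at least 10% of cells and 5 were at their highest of all clusters. The median was 437 CPM, against 34.4 CPM in cluster 35. CALB1 was at 1341 CPM at E50 and 6051 CPM in E60 replicate 1, and PCP4 at 985 and 3162 CPM. Both were also among the leading genes of cluster 14 and of erythroid-like cluster 41, with 53 of its 104 cells from E60 replicate 1. The part of free RNA in this difference was not tested. PLCB4, a phospholipase of the IP3 path, was at 457 and 176 CPM, while RORA (542 and 549 CPM) and DAB1 (1230 and 1104 CPM) were close. SLC32A1, the vesicular transporter for GABA, was at 111 CPM, the highest of the 47 clusters. The 8 interneuron markers, SLC32A1 among them, had a median of 0.90 CPM in cluster 37, with 3 found in 10% of its cells. EN2, a gene of the midbrain and hindbrain, was at 52.2 CPM against a median of 3.00 CPM over clusters. Of the 14 midbrain and hindbrain position genes in the tables, which include EN2, 3 were found in 10% of these cells, with a median of 0 CPM. Of the 11 genes that mark telencephalic position, none was found in 10% of these cells.

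**Figure D2:**
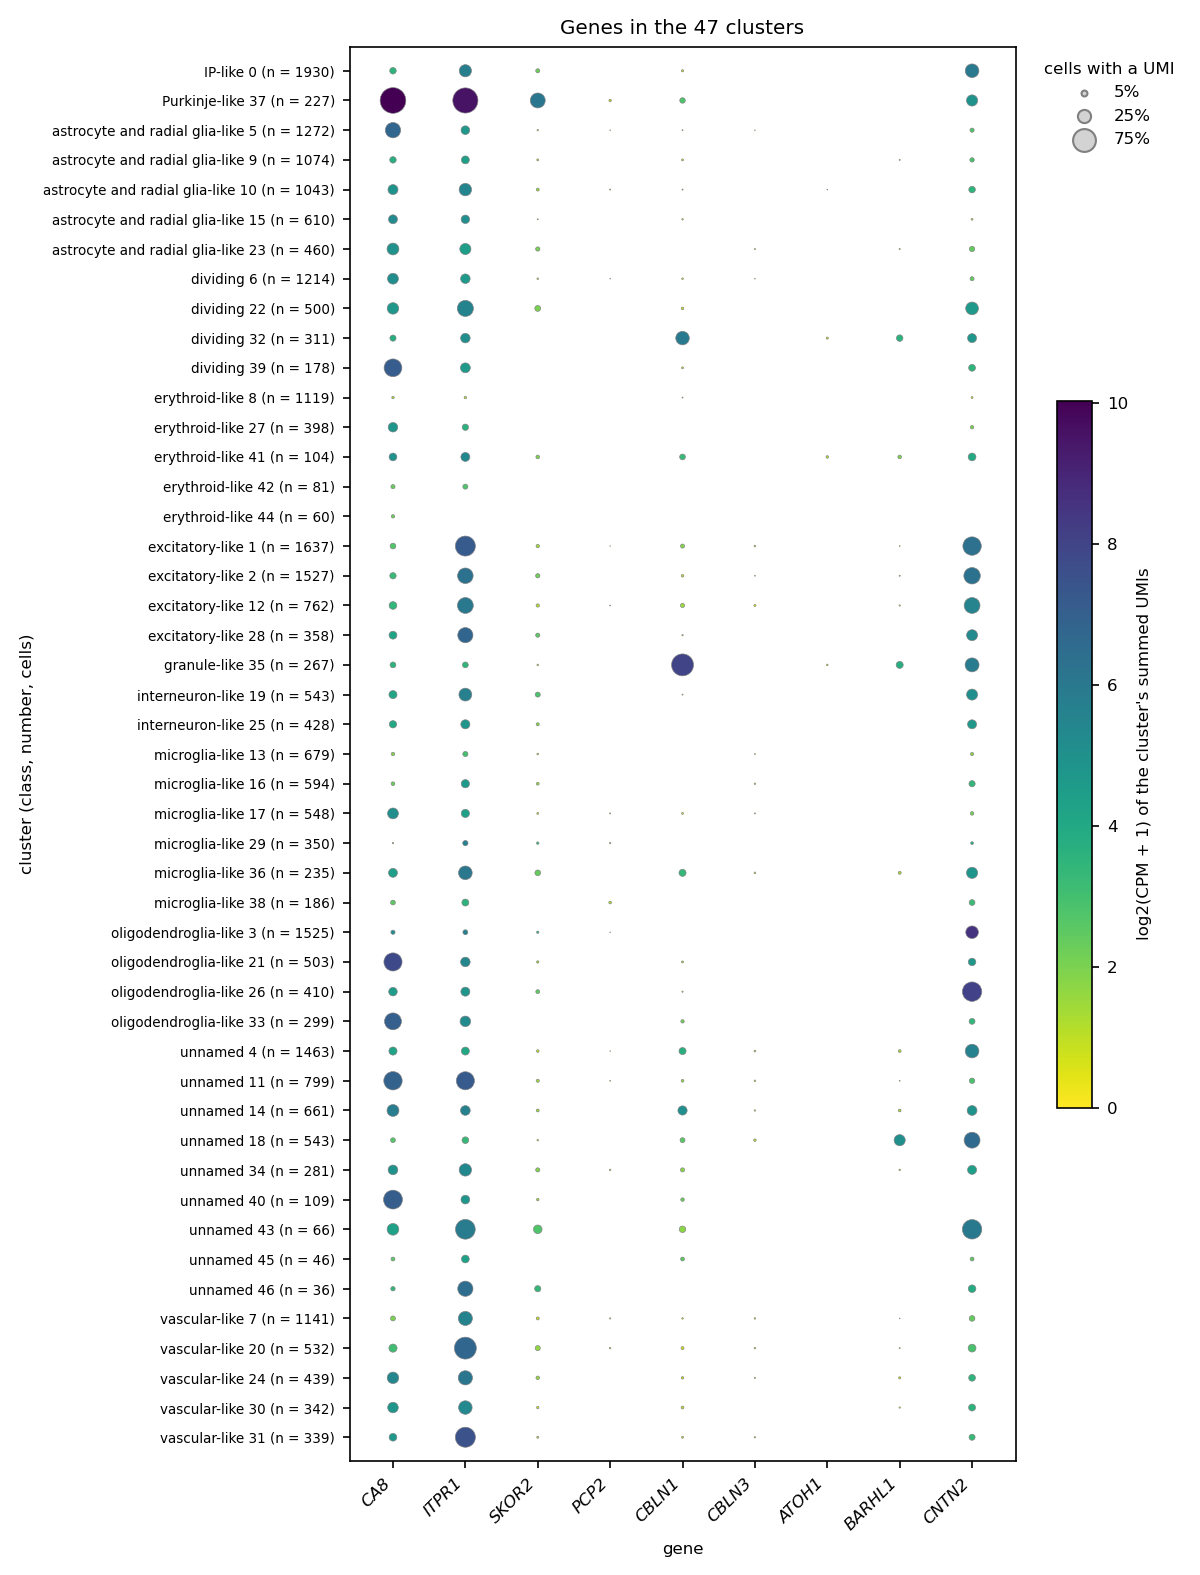
The 9 members (columns) in the 47 clusters (rows, with class, number and number of cells), with circle size for the percent of cells with a UMI and colour for log2(CPM + 1) of the cluster's summed UMIs. CA8, ITPR1 and SKOR2 are highest in Purkinje-like cluster 37 and CBLN1 in granule-like cluster 35, and CNTN2 is spread over neurons and oligodendroglia.

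The partners of ITPR1 were only in part present in the Purkinje-like cells. Of 13 listed genes of the IP3 path and its regulators, 10 were found in at least 10% of cells of cluster 37, and none was at its highest there. PLCB4 stood at 399 CPM, PLCB1, another phospholipase, at 298 CPM and GRM5, a metabotropic glutamate receptor, at 268 CPM. GRM5 was highest in excitatory-like cluster 28, at 1939.6 CPM. Over the 47 clusters DGKH (Pearson r = 0.81) and WARS2 (0.77) were among the genes most like ITPR1 on the log2(CPM + 1) scale. Those most like SKOR2 with a symbol were ATP13A5 (0.87) and CATSPERB (0.80), and the gene most like CA8 was SLITRK5 (0.74). Among the members, ITPR1 and SKOR2 had r = 0.68, CA8 and ITPR1 0.47 and CA8 and SKOR2 0.31. All these points share libraries and depth.

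CA8 was also above the microglia-like level in several clusters other than the Purkinje-like one. The next cluster was oligodendroglia-like cluster 21, led by OLIG1 and PDGFRA, with 226 CPM in 47.3% of cells. There CA8 was at 232 CPM at E50, 148 CPM in E60 replicate 1, 132 CPM in E70 replicate 3, 320 CPM in E70 nuclei and 561 CPM in adult nuclei, so it was held in every library with at least 20 such cells. Astrocyte and radial glia-like cluster 5 held it at 128 CPM at E50, 132 and 53.3 CPM in E60 replicates 1 and 2, and 168 CPM in E70 replicate 3. In adult cells the same cluster held 6 UMIs (10.9 CPM, exact Poisson interval 4.01 to 23.8), which overlaps adult microglia-like cells at 6.83 CPM (3.27 to 12.6). The TTR-led cluster 11, 772 of its 799 cells from E60 replicate 1, held 120 CPM, and the ciliation-gene cluster 40, with 109 cells all of E60 replicate 1, held 135 CPM. Microglia-like cells were at 3.32 CPM at E50, 21.6 and 14.3 CPM in E60 replicates 1 and 2 and 2.94 CPM in E70 replicate 3.

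These cells divided the CA8 of each library differently. At E50, 56.6% of CA8 UMIs lay in Purkinje-like cells. In E60 replicate 1 they held 10.9%, the TTR-led cluster 26.4% and astrocyte and radial glia-like cells 21.5%. In adult nuclei 91.2% lay in oligodendroglia-like nuclei, which were 75.1% of the nuclei. In adult cells oligodendroglia-like cells held 12 of 77 CA8 UMIs (15.6%), and their level of 6.65 CPM was close to the 6.83 CPM of microglia-like cells. The class was made of different clusters in these 2 libraries. Adult cells had 192 in cluster 26, 5 in cluster 33 and 0 in cluster 21. Adult nuclei had 1525 in cluster 3, 209 in cluster 26 and 181 in cluster 21. With the Purkinje-like and granule-like cells left out, CA8 went from 46.5 to 20.9 CPM at E50 but only from 59.7 to 54.1 CPM in E60 replicate 1. SKOR2 went from 2.49 to 0.976 CPM and from 1.38 to 0.819 CPM. The high CA8 sum of E60 replicate 1 therefore lay mostly in cells other than Purkinje-like ones.

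ITPR1 was widespread. RGS5-expressing vascular-like cluster 31 held 179 CPM, running from 122 CPM at E50 to 304 CPM in adult cells, and excitatory-like cluster 1 held 145 CPM, with 150 CPM at E50, 182 CPM in E60 replicate 3, 97.3 CPM in E70 replicate 2 and 123 CPM in E70 replicate 3. Excitatory-like cells held 45.6% of the ITPR1 UMIs at E50, 48.6% in E60 replicate 3, 27.4%, 43.75% and 54.2% in E70 replicates 1 to 3 and 74.0% in E70 nuclei. In E60 replicate 2, which all but lacked excitatory-like cells, 74.6% lay in vascular-like cells. In E60 replicate 1 vascular-like cells held 28.4%, the TTR-led cluster 27.1% and Purkinje-like cells 16.1%. Microglia-like cells were at 24.8 CPM. SKOR2, by contrast, was at or under 10.7 CPM in every cluster other than 37.

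**Figure D3:**
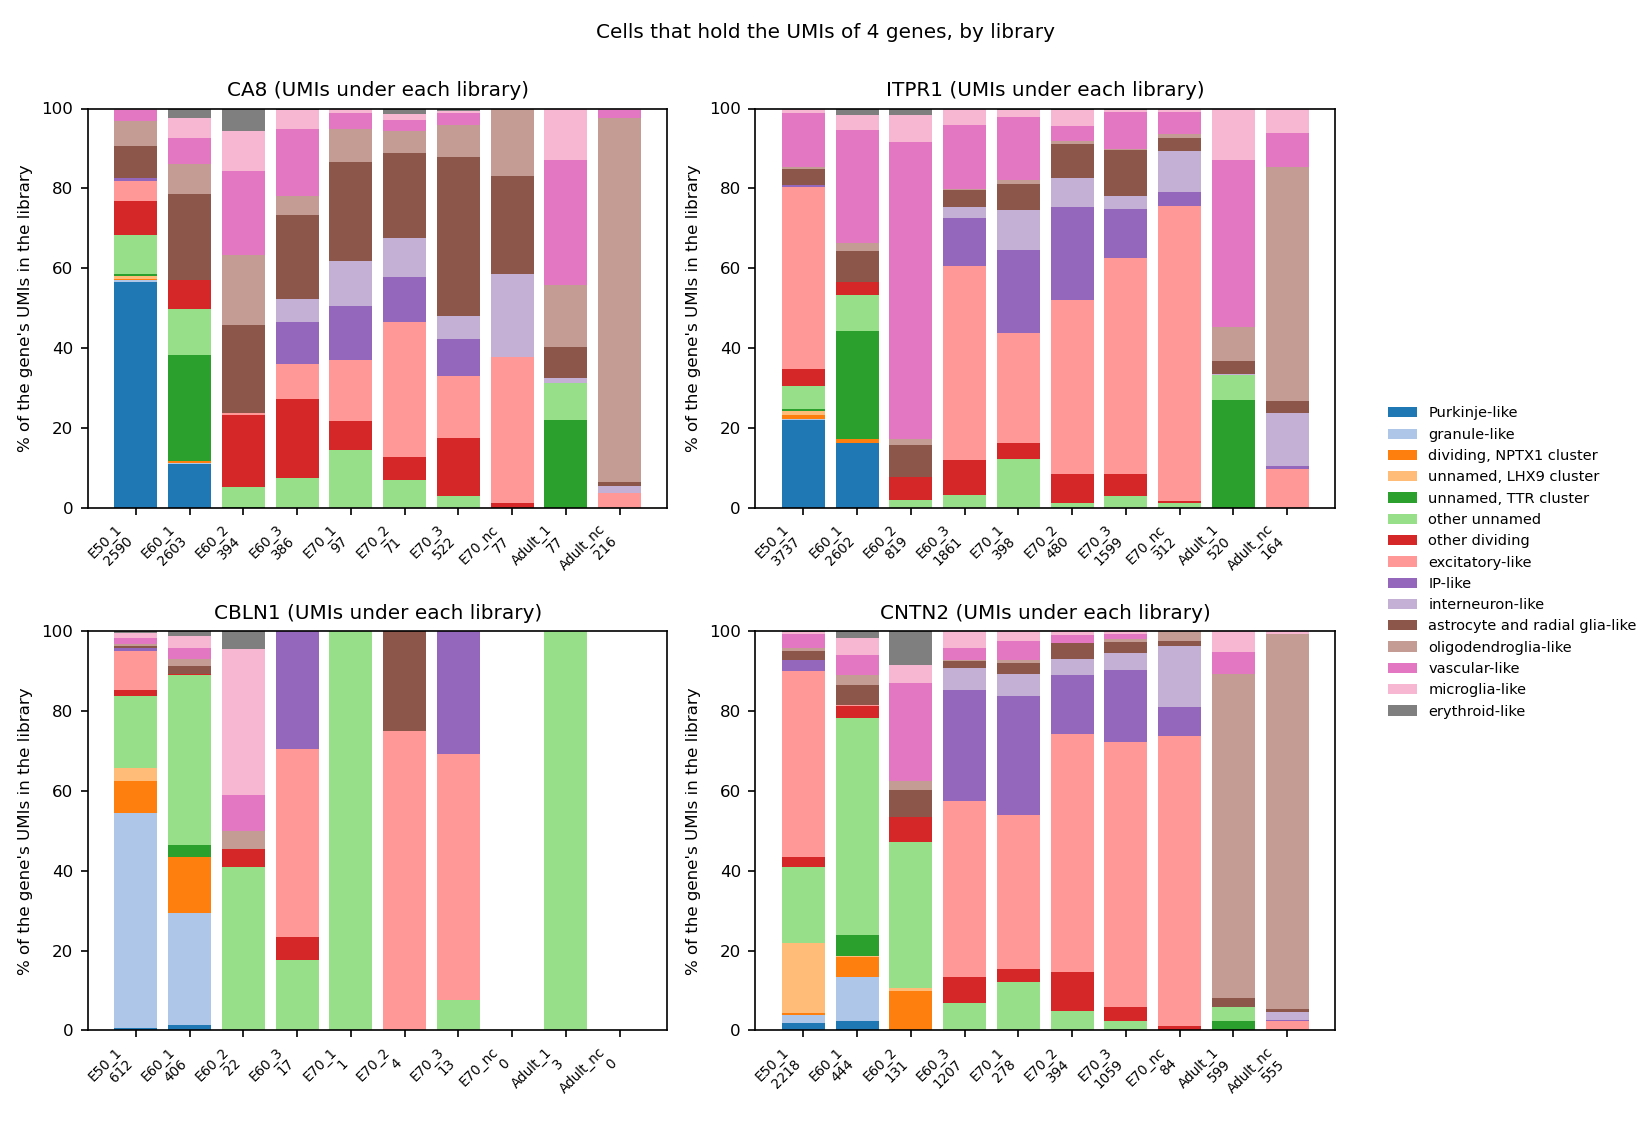
Percent of the UMIs of CA8, ITPR1, CBLN1 and CNTN2 held by each kind of cell (stacked bars), by library, with the number of UMIs under each library. Purkinje-like cells take 56.6% of CA8 at E50, granule-like cells take 53.9% of CBLN1 at E50, and oligodendroglia-like nuclei take 91.2% of CA8 in the adult nuclei.

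CBLN1 marked cluster 35. This granule-like cluster held 267 cells, 130 of E50 (2.36% of that library) and 137 of E60 replicate 1 (1.68%), and none of any other library. CBLN1 stood at 261 CPM in 69.3% of its cells (23.6% after thinning to 1000 UMIs), against 0.772% of microglia-like cells (0.219% after thinning). The cluster held 41.1% of all CBLN1 UMIs, and 50.8% with E60 replicates 1 and 2 left out. With the E50 library left out it held 24.2%, and unnamed cluster 14 held 25.5%. Without batch correction 133 of the 267 cells stayed granule-like, 130 fell into a cluster of 410 named dividing and 4 into an unnamed one. The name of the cells that moved therefore depends on the correction. At E50 it was at 279 CPM (exact Poisson interval 250 to 311) in 85.4% of cells, and in E60 replicate 1 at 219 CPM (181 to 264) in 54.0%, at median depths of 8608 and 3165 UMIs. CBLN3, its partner, had no UMI in these cells. ATOH1 had 1 UMI there, and CA8 and ITPR1 stood at 10.6 and 10.0 CPM.

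BARHL1 and CNTN2 were present in part of the granule-like cells. BARHL1 was at 12.4 CPM in 7.12% of them, and 16 of the 19 cells with BARHL1 also held CBLN1. CNTN2 was at 56.5 CPM, with 38.9 CPM at E50 and 97.0 CPM in E60 replicate 1, and 55 of 75 cells with it held CBLN1. Over all granule-like cells 69.3% held CBLN1, and whether either overlap exceeds that share was not tested. The granule cell genes that named the cluster were led by RELN, the secreted ligand of the reelin pathway (2299 CPM), the differentiation factor NEUROD1 (559 CPM), MEIS1 (434 CPM) and PAX6 (364 CPM). Of the 10, 8 were found in at least 10% of cells and 5 were at their highest of all clusters. GABRA6, a receptor subunit of mature granule cells, was at 3.53 CPM. Red cell transcripts were also present, with HBB at 15226 CPM. Over all cells of the source libraries, the 5 erythroid markers, which include HBB, summed to 15806 CPM at E50 and 50978 CPM in E60 replicate 1.

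Over the 47 clusters the genes most like CBLN1 were SCT (r = 0.83), PLCH2 (0.82) and SP5 (0.79), and CBLN1 itself was the second most like gene to ATOH1 (0.58), which rests on 5 UMIs.

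A dividing cluster also carried CBLN1 and BARHL1, with CBLN1 lower than in the granule-like cells. Cluster 32, led by NPTX1 and SP5 and by the division genes UBE2C and CENPF, held 311 cells, 80 of E50, 203 of E60 replicate 1, 27 of E60 replicate 2 and 1 of E70 replicate 2. CBLN1 was at 61.1 CPM in 26.4% of cells, the second highest cluster, with 58.1 CPM at E50 and 77.4 CPM in E60 replicate 1. BARHL1 was at 10.96 CPM (exact Poisson interval 6.60 to 17.1, which overlaps the 7.65 to 18.9 of the granule-like cells). Of the 5 ATOH1 UMIs, 2 lay here. The granule-like cluster, erythroid-like cluster 41 and astrocyte and radial glia-like cluster 10 held 1 each, so ATOH1 could not be placed in any cluster. MEIS1 was at 561 CPM, PAX6 at 254 CPM and EN2 at 67.5 CPM, its highest cluster. As in cluster 35, 8 of the 10 granule cell genes were found in at least 10% of these cells. Their median was 76.1 CPM, against 214.6 CPM in cluster 35, and 1 of them was at its highest of all clusters. The 27 cells of E60 replicate 2 held no CBLN1 and no BARHL1 UMI, which at their depth allows up to 25.1 CPM of either by the exact Poisson upper bound. They had MEIS1 at 109 CPM and PAX6 at 13.6 CPM, against 544 and 281 CPM in the E50 cells of the cluster.

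**Figure D4:**
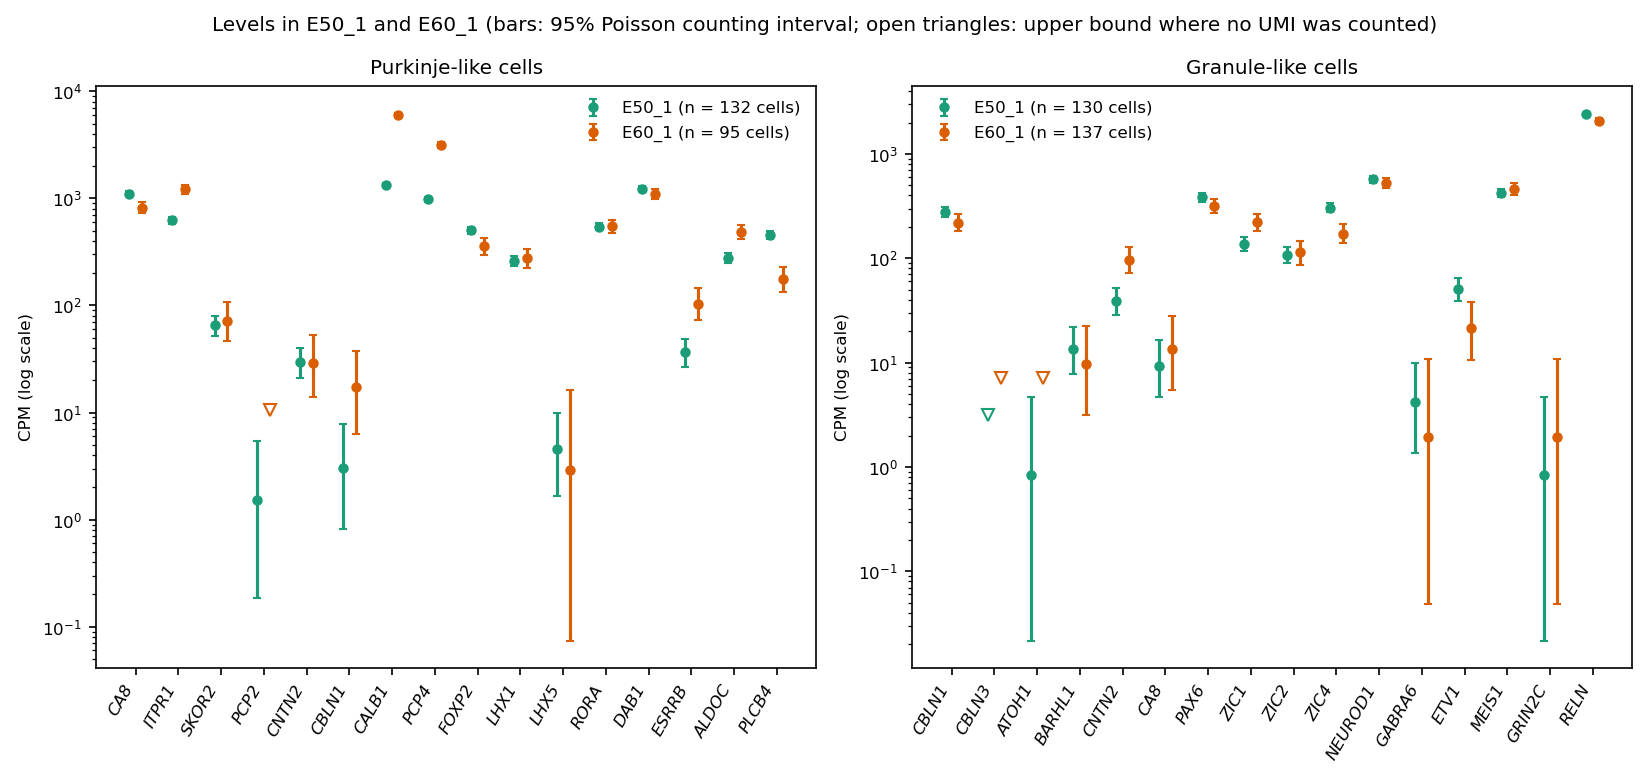
Levels in CPM (log axis) of members and of some other Purkinje and granule cell genes in the Purkinje-like cells (left) and granule-like cells (right) of E50 and E60 replicate 1, with exact 95% Poisson intervals and open triangles for the upper bound where no UMI was counted. Within the Purkinje-like cells CA8 is higher at E50 (1110 CPM) and ITPR1, CALB1 and PCP4 are higher in E60 replicate 1 (1211, 6051 and 3162 CPM).

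BARHL1 and CBLN1 were the most alike pair of members over the 47 clusters (r = 0.74), and clusters 35 and 32 held both. The highest BARHL1 level was in another cluster, where CBLN1 was low. This was cluster 18, which stayed unnamed, with 31.5 CPM in 17.9% of cells and 57.7% of all BARHL1 UMIs. Of its 543 cells, 532 came from E50, and with that library left out the cluster held 2 of the remaining 26 UMIs (7.69%). The cluster was led by the homeobox gene LHX9 (1104 CPM), TFAP2D and POU4F2. It held the glutamate transporter SLC17A6 at 199 CPM. SLC17A6 is among the 8 excitatory markers, of which 3 were found in 10% of its cells, with a median of 9.85 CPM. EN2 was at 61.8 CPM, with 1 of the 14 midbrain and hindbrain position genes found in 10% of its cells. LHX9 belongs to the rhombic lip list, of which 2 of 8 genes were found in 10% of these cells. In its E50 cells CBLN1 was at 4.97 CPM and CA8 at 5.47 CPM. Of its 97 cells with BARHL1, 43 also held CNTN2 and 7 held CBLN1. Over all cells of cluster 18, CNTN2 was found in 36.5% and CBLN1 in 3.50%. CNTN2 was at 97.0 CPM there, and 5 of the 47 CBLN3 UMIs lay in this cluster. The genes most like BARHL1 over clusters were MAB21L1 (r = 0.80), PRR35 (0.77) and TMIE (0.76).

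CBLN1 was found at lower levels in other unnamed clusters of E50 and E60. Cluster 14, led by CRABP1, TAC1 and PCP4 and made of 429 cells of E60 replicate 1 and 189 of E60 replicate 2, held 32.4 CPM (9.48 CPM without E60 replicate 1), and 17.2% of its cells were among those scored as doublets at the expected rate. Cluster 4, led by PENK, SST and TAC1 with 690 cells of E50 and 630 of E60 replicate 1, held 12.0 CPM. Cluster 14 held 12.2% and cluster 4 held 14.3% of all CBLN1 UMIs, and without the E50 library cluster 14 held 25.5%. Of the 210 cells with at least 2 CBLN1 UMIs, 112 were granule-like, 33 lay in cluster 14, 30 in cluster 4 and 17 in cluster 32. By library, 119 were of E50 and 89 of E60 replicate 1, with 1 each in E70 replicate 3 and adult cells.

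CBLN3 and PCP2 marked no cells. The 47 cells with CBLN3 held 1 UMI each, 14 of them excitatory-like, 17 unnamed and 5 microglia-like. The 21 PCP2 cells were 2 Purkinje-like, 5 vascular-like and 4 microglia-like, with the remainder of other kinds. At this depth neither gene could be placed above the level in microglia-like cells.

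CNTN2 followed neurons and, in the adult, oligodendroglia. Oligodendroglia-like clusters 3 and 26, led by OPALIN, MOG and MAG, held 382 and 268 CPM, the former from adult nuclei at a median of 648 UMIs. Oligodendroglia-like cells held 81.3% of the CNTN2 UMIs of adult cells and 93.9% of those of adult nuclei. In fetal libraries excitatory-like cells took 46.7% at E50, 44.1% in E60 replicate 3, 38.5%, 59.6% and 66.5% in E70 replicates 1 to 3 and 72.6% in E70 nuclei, but 0.225% in E60 replicate 1 and 0% in E60 replicate 2. Within excitatory-like cluster 1, CNTN2 was steady, at 81.0 CPM at E50, 75.3 CPM in E60 replicate 3, 90.2 CPM in E70 replicate 2 and 78.2 CPM in E70 replicate 3. Microglia-like cells were at 9.02 CPM, and Purkinje-like cells at 29.4 CPM. The genes most like CNTN2 were SRCIN1, ANK3, the scaffold of the axon initial segment, and ENOX1, each with r = 0.88.

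Of the stages, only E60 and E70 had replicate libraries of whole cells, so the level of each member was compared between them with edgeR's quasi-likelihood test on UMIs summed per library (n = 3 and 3). Of 16743 genes tested, 0 (0.00%) passed an adjusted p of 0.05, 4916 (29.4%) had an unadjusted p under 0.05, and DESeq2 called 2833. The CPM of the groups did not overlap for 4406 genes (26.3%). Members were likewise not called: 5 passed the filter on low counts and 0 passed the threshold by edgeR, 1 of them with an unadjusted p under 0.05, and DESeq2 called 1. PCP2, CBLN3, ATOH1 and BARHL1 were too low to be tested.

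CBLN1 was the member with the lowest p-value. Its mean was 3.59 ± 4.96 CPM at E60 and 0.400 ± 0.216 CPM at E70 (SD, n = 3 each), and the log2 fold change of E70 against E60 was -3.31 (SE 1.205, 95% interval -6.09 to -0.52, edgeR unadjusted p = 0.0257, adjusted p = 0.138). It was the member that DESeq2 called, with a change of -3.30 and an adjusted p of 0.0228. CBLN1 was also the only member tested whose groups did not overlap, with E60 replicate 3 at 0.595 CPM just above E70 replicate 2 at 0.575 CPM. E60 replicate 1 set the size: without it the change was -1.01, and with E60 replicates 1 and 2 both left out it was -0.48. Without E60 replicate 3 the adjusted p was 0.0327 by edgeR, and 5902 genes and 3 members passed (SKOR2 and CNTN2 were the others). Without E70 replicate 3, 1570 genes and 0 members passed.

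CA8 was at 29.6 ± 26.1 CPM at E60 and 14.8 ± 4.29 CPM at E70, a log2 change of -1.22 (SE 0.62, 95% interval -2.64 to 0.21, edgeR adjusted p = 0.216), and the groups overlapped. Without E60 replicate 1 it was -0.19, and without E60 replicates 1 and 2 it was 0.13. ITPR1 was at 52.3 ± 17.6 and 63.2 ± 5.82 CPM, with a change of 0.11 (SE 0.29, 95% interval -0.56 to 0.78, edgeR adjusted p = 0.805). SKOR2 was at 1.68 ± 1.34 and 4.55 ± 1.90 CPM, a change of 1.30 (SE 0.64, edgeR adjusted p = 0.205), and CNTN2 at 19.2 ± 20.1 and 46.2 ± 9.53 CPM, a change of 1.203 (SE 0.64, edgeR adjusted p = 0.232). Both overlapped. Without E60 replicates 1 and 2 these changes were 0.49 and 0.14. In those libraries the excitatory-like share and the excitatory marker sum were also low, and their part in the change was not tested.

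The other genes of the fixed lists included no gene that edgeR called at an adjusted p of 0.05. The 12 Purkinje genes had a median log2 change of -1.09, and their summed level was 810 to 1894 CPM at E60 and 926 to 1089.5 CPM at E70. The 9 granule cell genes tested had a median of -0.58, the 12 IP3 path genes -0.56, the 8 cerebellin partners -0.06 and the 8 contactin family genes 0.91. The 5 rhombic lip genes tested had a median of 0.56, the 10 telencephalic position genes 1.32 and the 8 excitatory markers 1.64. The 2 cerebellar GABA progenitor genes tested had a median of 1.12, and 0.98 with E60 replicates 1 and 2 left out. The 6 found summed to 15.4, 20.9 and 65.6 CPM at E60 and 354, 336 and 85.7 CPM at E70. Markers of some other cell types had medians below that of the Purkinje list. These were astrocytes and radial glia at -1.11, dividing cells at -1.23, red cells at -1.68, microglia at -1.76 and vascular cells at -1.87. Others lay above it: oligodendroglia at -0.52, interneurons at 0.69, intermediate progenitors at 0.69 and photoreceptors at 2.30. The median over all genes tested was -0.06. The 7 midbrain and hindbrain position genes tested had a median of -0.00044, and the 14 found summed to 117, 185 and 104 CPM at E60, 488, 421 and 126 CPM at E70 and 133 CPM at E50. With E60 replicates 1 and 2 left out, the medians were -0.028 for the Purkinje list, -0.00830 for the granule cell list and 0.26 for the rhombic lip list. They were 0.069 for the IP3 path, 0.13 for the cerebellin partners and 1.06 for the contactin family. Midbrain and hindbrain position was at 1.34, telencephalic position at 0.14 and the excitatory markers at 0.16. Astrocytes and radial glia were at -0.25, dividing cells at -1.03, red cells at -0.28, microglia at -0.32 and vascular cells at -0.48. Oligodendroglia were at 0.71, interneurons at -0.22, intermediate progenitors at -0.13 and photoreceptors at 3.02. That fit tested 10 granule cell, 6 rhombic lip, 9 contactin family, 6 midbrain and hindbrain and 5 photoreceptor genes. For these lists the medians do not cover the same genes in both fits.

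**Figure D5:**
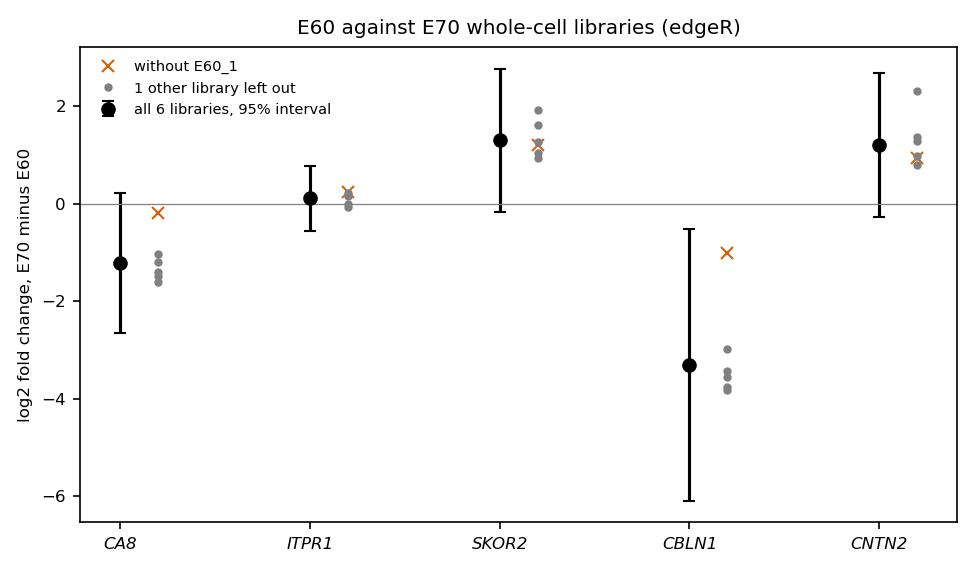
The log2 fold change of E70 against E60 by edgeR for the 5 tested members, with all 6 libraries and its 95% interval (black), without E60 replicate 1 (cross) and without each other library in turn (grey points). The interval of CBLN1 lies below 0 and those of the others reach across it, and without E60 replicate 1 CA8 and CBLN1 lie at -0.19 and -1.01.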

How the data were processed

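The authors sequenced droplet libraries and deposited UMI counts per gene and cell; per the labels, Cell Ranger 2.20 was used with Sscrofa11.1, and the study's methods name an Ensembl pre-mRNA annotation, so intronic molecules were counted. All deposited barcodes were kept. Counts were scaled to 10000 per cell and log-transformed, 3000 variable genes (members and listed genes left out) and 50 principal components were batch-corrected by mutual nearest neighbours (k = 20), and cells were clustered by Louvain at resolution 1.6 (scanpy 1.11.5, igraph 0.11.9). A cluster took the name of the fixed list with its highest score (the mean over the list's genes of log2(CPM + 1) standardised across clusters) where that score was at least 1.2, a minimum set after the data were seen, and at least 3 of the markers were found in 10% of its cells. Scrublet's automatic threshold marked 0 cells in E60 replicates 1 and 2, so doublets were kept and an expected-rate removal was an alternative. CPM scales a gene's UMIs by all UMIs of the same cells. UMIs summed per library were tested with edgeR 4.0.16 (TMM, filterByExpr, quasi-likelihood, Benjamini-Hochberg adjustment) and DESeq2 1.42.0 in R 4.3.3, tested on simulated data. Poisson and Clopper-Pearson intervals (95%) cover counting error only. The genes named are the members, the highest genes of fixed lists, and the 3 genes most correlated with a member over clusters (at least 100 UMIs); some of the genes and sequences so chosen are not reported here. The members and lists were chosen with earlier results of these data known. Replicates are separate batches of different brains, some pooled, so p-values measure biological and batch spread together.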

Additional observations from a re-analysis of the deposited data

How the results depend on the processing

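Leaving out 1 library at a time changed the comparison of E60 with E70: members called ranged from 0 to 3 and genes from 0 to 5902, the highest without E60 replicate 3, when CBLN1, SKOR2 and CNTN2 were called by edgeR (adjusted p of 0.0327, 0.0463 and 0.0168). Without E70 replicate 3, 1570 genes were called. DESeq2 called 1 member (CBLN1, adjusted p = 0.0228) and 2833 genes. The sign of CA8 turned to 0.13 with E60 replicates 1 and 2 both left out, an alternative chosen after seeing the data, and that of ITPR1 (0.11) to -0.040 there, -0.079 without E60 replicate 2 and -0.00445 without E70 replicate 2, with 0.24 as its highest value without 1 library. The share of CA8 UMIs in Purkinje-like cells (24.9%) was 21.8% without batch correction, 26.6% without expected-rate doublets, 28.5% with no minimum score for a cluster's name and 6.37% to 33.1% without 1 library, and that of CBLN1 in granule-like cells (41.1%) was 32.004% without batch correction and 24.2% to 49.1% without 1 library. Both shares were lowest without E50 (6.37% and 24.2%) and highest without E60 replicate 1; leaving out E50, the nuclei or the adult libraries and dropping the minimum score were chosen after seeing the data. Without batch correction 92 Purkinje-like cells fell into a cluster named erythroid-like, with CA8 at 335 CPM, and 2 into an unnamed one. Of the granule-like cells, 130 fell into a cluster named dividing and 4 into an unnamed one. The cause was not tested. Resolutions of 1.0 and 2.5 kept all 227 Purkinje-like and 267 granule-like cells together.

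Shares of cells with a UMI depend on depth. Over all cells they were 12.8% for CA8, 21.5% for ITPR1, 1.62% for SKOR2, 0.0744% for PCP2, 2.39% for CBLN1, 0.167% for CBLN3, 0.0177% for ATOH1, 0.645% for BARHL1 and 16.2% for CNTN2. Thinned to 1000 UMIs they were, in that order, 3.41%, 4.84%, 0.229%, 0.00762%, 0.564%, 0.0229%, 0.00381%, 0.137% and 2.92%, and with at least 2 UMIs 4.12%, 8.89%, 0.152%, 0%, 0.744%, 0%, 0%, 0.120% and 4.90%. With the replicate number as a block 0 genes and 0 members were called (CBLN1 -1.98, adjusted p = 0.343 by edgeR). Same-numbered libraries correlated at -0.17, 0.03 and -0.13, and pairs with different numbers at -0.077 to 0.17, so the number gave no pairing. The study's methods describe sequencing runs that each pooled 2 libraries of different stages. Which libraries shared a run was not used here. Of 70 alternative values of a member's change, 62 kept direction and side of the threshold, 4 passed the threshold and 4 changed sign.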

Other observations

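EN2, a gene of the midbrain and hindbrain, was also counted outside the cerebellar-like clusters. It was at 67.5 CPM in cluster 32, 65.3 CPM in the granule-like cluster, 61.8 CPM in cluster 18, 56.5 CPM in cluster 14, 52.2 CPM in the Purkinje-like cluster, 51.5 CPM in cluster 4 and 51.1 CPM in cluster 9, against a median of 3.00 CPM over the 47 clusters. Cluster 9, an astrocyte and radial glia-like cluster of 1074 cells with 333 from E50, 282 from E60 replicate 1 and 457 from E60 replicate 2, also held the highest PAX3 (176 CPM) and PAX7 (73.4 CPM), paired box genes of the dorsal neural tube. EN2 was singled out after its values were seen. Of the 14 midbrain and hindbrain position genes in the tables, 3 each were found in 10% of the cells of clusters 37, 35 and 32 and 1 in those of cluster 18, with medians of 0, 3.53, 6.92 and 5.17 CPM.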
